A study of Mus musculus with 4 samples.

Results

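Coding-sequence m6A peaks that cross exon junctions were studied in Mettl5 knockout and wild-type mouse embryonic stem cells. A peak belonged to this class when its deposited row gave the class coding sequence (CDS), held 2 or more exon blocks and lay on a reference chromosome. The 4 deposited peak lists held 3159 such peaks, and joining them where exon blocks overlapped by 1 bp or more gave 1428 regions in 1289 genes, of 15487 regions formed by all listed peaks. Coding-sequence peaks that stayed within 1 block, which serve as the nearest comparison, numbered 13199 and formed 4995 regions. The regions of junction-crossing peaks are called junction-crossing regions here, and a gap between 2 blocks of a peak is called a junction.

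The knockout group (KO) was 2 libraries of Mettl5-/- mouse embryonic stem cells, KO1 and KO2, and the wild-type group (WT) was 2 libraries of wild-type mouse embryonic stem cells, WT1 and WT2, all of strain C57BL/6N. The titles of the WT libraries are worded differently, although both carry the wild-type genotype. The labels also describe embryoid body and neural differentiation, which the titles of these libraries do not mention. The labels do not say whether the knockout is 1 clone or how Mettl5 was disrupted, nor that the libraries of a group came from separate cultures, and p-values over libraries may therefore measure technical spread only. The lists held 12699 and 10821 peaks in KO1 and KO2, against 11696 and 11201 in WT1 and WT2, and read depth is unknown here. Mettl5 itself had no listed peak in any of the 4 lists, so these lists cannot check the knockout. Of the 5 markers of the stem cells themselves, Klf4 alone had a junction-crossing region, and the 4 marker lists of other cell types (neural, mesoderm and endoderm, feeder fibroblast, and primitive endoderm and trophoblast) had 0. Listed peaks of any form were present for 5, 5, 3 and 4 of the 10 genes of these lists, in that order, and for 4 of the 5 stem cell markers. Over all genes with a listed peak, 12.96% had a junction-crossing region, so counts this small cannot check the cell type.

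N6-methyladenosine (m6A) in messenger RNA is placed by the Mettl3 and Mettl14 methyltransferase complex, mostly in a motif centred on GGAC, while Mettl5 methylates the small-subunit ribosomal RNA. In mature mRNA the mark is found in long internal exons and around the stop codon. During splicing the exon junction complex is deposited a short distance before each junction, and it is known to keep the methyltransferase away from nearby sequence, so short exons flanked by junctions carry little m6A. The assay used here, MeRIP-seq, fragments RNA and precipitates pieces with an antibody against m6A, so that a peak is wider than the modified base and its fragments can extend across a junction.

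Sequence could be read at a small part of the block edges only. RefSeq sequence windows around gene starts (assembly GRCm38.p6, which is mm10) covered 32 edges of gaps of 50 bp or more, of 23 genes. The peaks crossed 2695 distinct junctions in all, so most gaps were not read and these edges stand for gene starts only. The gap began with GT, the usual first bases of an intron, at 15 of 15 upstream edges. It ended with AG, the usual last bases, at 10 of 17 downstream edges, and 6 of the 7 others lay at an annotated RefSeq transcript start. Edges present in all 4 libraries are shown first, with 15 bases on each side of the edge and the intron's end bases in capitals, in the direction of the gene.
Senp3, upstream edge, chr11:69681974-69682003, minus strand: cctagacgcgctgagGTaggcgggactgag
Mrpl57, upstream edge, chr14:57826308-57826337, plus strand: cggttggtacgcgagGTgggttttcgggga
Lzts3, downstream edge, chr2:130635450-130635479, minus strand: cctgcccctgtccAGgtgtgccagaaggcc
Egln2, downstream edge, chr7:27165714-27165743, minus strand: ttttctcttttccAGccacccccatcagtc
The next 3 edges belong to regions listed as junction-crossing in 1 genotype only. Kif14 and Mea1 were so listed in both KO libraries, with no peak there in WT. Lipt2 was so listed in both WT libraries, and KO2 had a single-block peak of the 3' untranslated region there.
Kif14, downstream edge, chr1:136467833-136467862, plus strand: tttcattttttgtAGtcggccagatatttt
Mea1, upstream edge, chr17:46681191-46681220, plus strand: gaatcagtggggcggGTaggggactctgta
Lipt2, upstream edge, chr7:100159733-100159762, plus strand: agatctgcgcgatcgGTgagcgcgccgggg
Not every gap had both intron ends. A gap of 316 bp in Nfe2l1, listed in all 4 libraries, ended with GC at an annotated transcript start. A gap of 10 bp in Dnajb1, listed in both WT libraries, began with GT and did not end with AG.
Dnajb1, downstream edge, chr8:83608538-83608567, plus strand: ggaaggtacgtgtGCgcgcggccggggtga

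Both edges were covered for 3 junctions with GT and AG, and also for junctions of Dph3 and Cdv3 that did not end with AG. The Dph3 gap (123 bp, listed in KO1) began with GT and ended with CT. The Cdv3 gap (73 bp, listed in KO1, KO2 and WT1) began with GT and ended with GC. For the 3 with GT and AG, joining the blocks gives the sequence that a transcript spliced there would hold. The capitals mark the last base before and the first base after the junction. The Lipt2 junction removes a gap of 426 bp and was listed in WT1 and WT2, whereas those of Evpl (101 bp) and Pim1 (94 bp) were listed in KO1.
Lipt2 joined at chr7:100159748-100160173, plus strand: agatctgcgcgatcGGagtccgctgtggaa
Evpl joined at chr11:116225161-116225261, minus strand: agcatccaggctcaGGagaagaaccttgcg
Pim1 joined at chr17:29491571-29491664, plus strand: gattggggagaactGCccaatggcacccga

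Longer stretches inside the blocks could be read for 18 regions, again only where a RefSeq window of a neighbouring gene start overlapped a block by 150 bases or more. The letters GGAC were searched on the strand of the gene, with capitals at each match, and stood in 13 of the 18 stretches. Of RefSeq promoter windows cut to their first 150 and 300 bases, 41.1% and 65.6% held GGAC. These bases lie wholly or mostly upstream of the annotated transcript start, so they are not a matched set of exon sequence. The 4 stretches shown have a reading frame without a stop codon and hold GGAC. Among those not shown, Ddx51 and Gemin4 also had such a frame and GGAC, while Cebpz, Gpank1 and Tubb2b had such a frame without GGAC. The Lzts3 and Slc7a4 stretches come from regions listed in all 4 libraries, Zfp212 from KO1, KO2 and WT2, and Arhgef40 from KO1 and KO2, with single-block coding-sequence peaks there in WT1 and WT2. GGAC occurred 3 times in Lzts3, 3 times in Slc7a4, 2 times in Zfp212 and 1 time in Arhgef40. On the other strand it occurred 0, 2, 0 and 1 times. Of RefSeq promoter windows cut to the same length, 61.4%, 65.6%, 48.6% and 49.1% held GGAC, so a match alone does not mark a methylated site.
Lzts3, chr2:130635192-130635464, minus strand: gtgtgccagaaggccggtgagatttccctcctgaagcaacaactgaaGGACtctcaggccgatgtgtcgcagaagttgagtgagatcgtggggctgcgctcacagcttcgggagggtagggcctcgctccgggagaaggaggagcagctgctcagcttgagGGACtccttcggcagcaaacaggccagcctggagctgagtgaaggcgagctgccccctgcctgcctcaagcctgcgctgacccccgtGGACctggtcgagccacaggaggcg
Slc7a4, chr16:17575629-17575928, minus strand: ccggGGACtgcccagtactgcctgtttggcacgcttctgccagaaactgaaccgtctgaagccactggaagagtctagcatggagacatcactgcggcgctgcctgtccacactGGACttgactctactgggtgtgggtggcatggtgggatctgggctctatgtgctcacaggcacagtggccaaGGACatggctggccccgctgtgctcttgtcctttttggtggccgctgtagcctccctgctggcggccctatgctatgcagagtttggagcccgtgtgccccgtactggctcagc
Zfp212, chr6:47926597-47926786, plus strand: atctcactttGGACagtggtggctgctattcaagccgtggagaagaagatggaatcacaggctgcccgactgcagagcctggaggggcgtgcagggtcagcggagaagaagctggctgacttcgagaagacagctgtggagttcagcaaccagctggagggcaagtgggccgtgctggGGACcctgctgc
Arhgef40, chr14:51988887-51989079, plus strand: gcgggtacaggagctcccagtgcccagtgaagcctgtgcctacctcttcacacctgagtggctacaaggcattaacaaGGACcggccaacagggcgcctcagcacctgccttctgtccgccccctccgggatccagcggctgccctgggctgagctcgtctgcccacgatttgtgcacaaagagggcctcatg
The authors' fold enrichment (the ratio of each peak over a background that the sources used here do not name) was 225 and 111 in KO1 and KO2, and 273 and 166 in WT1 and WT2, for the Lzts3 region. It was 303 and 343 in KO1 and KO2 for the 2-block peak of Arhgef40, and 308 and 217 in WT1 and WT2 for the single-block peak listed there.

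Junction-crossing peaks made up a similar share of coding-sequence peaks in both genotypes. They numbered 883 and 731 in KO1 and KO2, against 805 and 740 in WT1 and WT2. As a share of coding-sequence peaks they were 20.7% and 18.5% in KO1 and KO2, and 19.4% and 18.6% in WT1 and WT2. The KO mean was 19.6% ± 1.51 and the WT mean 19.0% ± 0.599 (SD, n = 2 each). The difference of 0.62 percentage points was smaller than the spread of the KO libraries (two-sided exact permutation test, p = 1), in a design of 2 against 2 that cannot give a p below 0.33. It was set by KO1: without that library the difference was -0.445 percentage points. Protein-coding genes held 3156 of the 3159 peaks, and 538 of the 1289 genes (41.7%) also had a single-block coding-sequence peak.

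Most of these peaks crossed a single junction and carried most of their length in 1 exon. Peaks of exactly 2 blocks were 55.8% and 57.6% of junction-crossing peaks in KO1 and KO2, and 57.0% and 56.9% in WT1 and WT2, a difference of -0.243 percentage points between genotypes (exact permutation p = 1). The median largest block measured 612 and 631 bp in KO1 and KO2 and 626 and 634.5 bp in WT1 and WT2, and held between 82.4% and 85.6% of the exonic length of a median peak. In peaks of 2 blocks the block nearer the 3' end of the gene was the larger one in 78.1% and 76.2% of cases in KO1 and KO2, and in 80.2% and 79.3% in WT1 and WT2. At the other end, the smallest block was shorter than 20 bp in 18.8% and 20.2% of KO1 and KO2 peaks and in 17.4% and 18.5% of WT1 and WT2 peaks.

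The peaks crossed 2695 distinct junctions. The gap at these junctions had a median of 392 bp, with quartiles of 141 and 1079.5 bp, and ranged from 1 to 39036 bp. Only 36 gaps (1.34%) were under 50 bp, too short for a usual intron. Exons lying wholly inside a peak, with a junction at both ends, numbered 1259 and had a median length of 147 bp (quartiles 100 and 274 bp). Of these, 240 (19.1%) were longer than 400 bp. The listed peaks enclosed exons of usual length along with long ones, and the lists do not say which base within a peak is modified.

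The extremes show how far single peaks reached. The peak with most blocks, 12, was that of Sart1, a splicing factor of the tri-snRNP, in KO2, where its fold was 4.05. The WT2 peak there had 4 blocks and a fold of 2.12. A peak of 11 blocks was listed for Myh7b, a muscle-type myosin heavy chain, in KO1, for Myh9, the non-muscle myosin heavy chain, in KO2, and for Zc3h13, a subunit of the m6A methyltransferase complex, in KO2 and WT1. Wdr33, a subunit of the polyadenylation machinery and one of 3 genes whose largest peak had 10 blocks, had 10, 9 and 10 blocks in KO1, KO2 and WT2. The Myh9 fold was 3.62, while the Zc3h13 folds were 430 in KO2 and 622 in WT1, so many blocks did not go with 1 level of enrichment. Predicted genes and those with RIKEN clone names aside, the widest genomic span was 42701 bp, at Spen, a large RNA-binding repressor needed for silencing by Xist. It was followed by Col18a1, a basement membrane collagen, with 31666 bp, and by Zc3h13 with 27786 bp, Zbtb10, a zinc finger repressor, with 27261 bp, and Wdr33 with 21364 bp.

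The longest enclosed exon, of 6836 bp, belonged to Mki67, the proliferation antigen that coats mitotic chromosomes. It was enclosed in KO1, where the peak had a fold of 346. The WT2 peak, with a fold of 123, ended within that exon, and the region was absent from KO2 and WT1 in any form. The next longest enclosed exons were in the Golgi protein Golgb1 (5129 bp, enclosed in KO2 and not by the 2-block peaks of WT1), in Ice1, a component of the little elongation complex (4698 bp, enclosed in WT1 and not by the 2-block peaks of KO1, KO2 and WT2), in the golgin Golga4 (4211 bp, enclosed in KO1) and in the zinc finger homeobox gene Zfhx2 (3477 bp, enclosed in all 4 libraries). The Ice1 folds were 394 and 383 in KO1 and KO2, and 616 and 471 in WT1 and WT2.

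The midpoint of nearly every junction-crossing peak fell in an exon block. The deposited position of each peak is the middle of its span, and that midpoint lay inside a block in 99.2% and 99.3% of junction-crossing peaks in KO1 and KO2, and in 99.3% and 98.9% in WT1 and WT2. Gaps made up a median of 36.3% of the span. Over all 4 lists the midpoint fell in a gap in 26 of 3159 junction-crossing peaks (0.823%), against 251 of 1844 multi-block peaks of other classes (13.6%). Which annotation set the class of a peak, and at which position of the peak, is not stated in the sources used here. If the class was set at the midpoint, these shares would follow from selecting coding-sequence peaks.

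Junction-crossing peaks sat nearer the 3' end of the gene than single-block ones. Of all such peaks, 97.0% had a gene in the RefSeq table and 96.7% overlapped it. Position was that of the midpoint of the span along the genomic length of the gene, introns included, and not along the mRNA. The median position was 78.5% and 78.8% of the way through the gene in KO1 and KO2, and 79.2% and 79.9% in WT1 and WT2. Single-block medians were 72.8% and 73.1% in KO1 and KO2, and 72.1% and 72.0% in WT1 and WT2. The difference averaged 6.61 percentage points ± 1.09 (SD, n = 4 libraries) and was positive in 4 of 4 libraries (two-sided exact sign-flip permutation p = 0.12, the smallest that 4 libraries can give). The 3' edge of the peak lay within 1000 bp of the gene end for 32.0% and 28.4% of junction-crossing peaks in KO1 and KO2. In WT1 and WT2 it did so for 32.0% and 31.0%, whereas single-block shares lay between 19.0% and 20.1%. A longer peak reaches further to either side, and the part of peak length in this difference was not tested.

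Strength was measured as the percentile of the authors' p-value within its own list, 100 being the strongest. Junction-crossing peaks were among the strong ones in every library. Their median percentile was 84.8 and 84.8 in KO1 and KO2, and 85.7 and 84.3 in WT1 and WT2, against single-block medians between 48.2 and 49.1. The difference averaged 36.1 ± 0.633 percentile points (SD, n = 4), with no overlap between the library medians of the classes (exact sign-flip p = 0.12). The strongest 10% of a list took in 39.98% and 40.8% of junction-crossing peaks in KO1 and KO2, and 41.0% and 39.6% in WT1 and WT2. Of single-block peaks it took in between 9.32% and 9.81%. The median fold was 113 and 106 in KO1 and KO2, and 147 and 135 in WT1 and WT2, which was 5.89, 3.86, 6.34 and 4.67 times the single-block median of the same list.

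The classes also differed in length, and within ranges of length the fold was no longer higher throughout. Junction-crossing peaks had a median exonic length of 810 and 811 bp in KO1 and KO2, and 822 and 821.5 bp in WT1 and WT2, whereas single-block medians were between 358 and 388 bp. A peak must be long enough to reach a junction, so part of this difference follows from the definition. The comparison was therefore repeated within 4 ranges of exonic length, a choice made after seeing the data. The strength percentile of junction-crossing peaks stayed higher in all 16 range and library combinations, by 3.41 to 14.7 points. The fold did not: in peaks under 300 bp the ratio of junction-crossing to single-block medians was 0.917 and 0.64 in KO1 and KO2, and 0.775 and 0.872 in WT1 and WT2. From 300 to under 600 bp it was between 0.561 and 0.853, and at 1200 bp or more between 0.9 and 1.01. From 600 to under 1200 bp it was 1.19 and 0.956 in KO1 and KO2, and 1.39 and 0.937 in WT1 and WT2. At similar length these peaks had smaller p-values, without a fold that was larger throughout. Transcript level and read depth, on which a p-value also depends, were not measured in the lists and their part in the result was not tested.

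**Figure D1:**
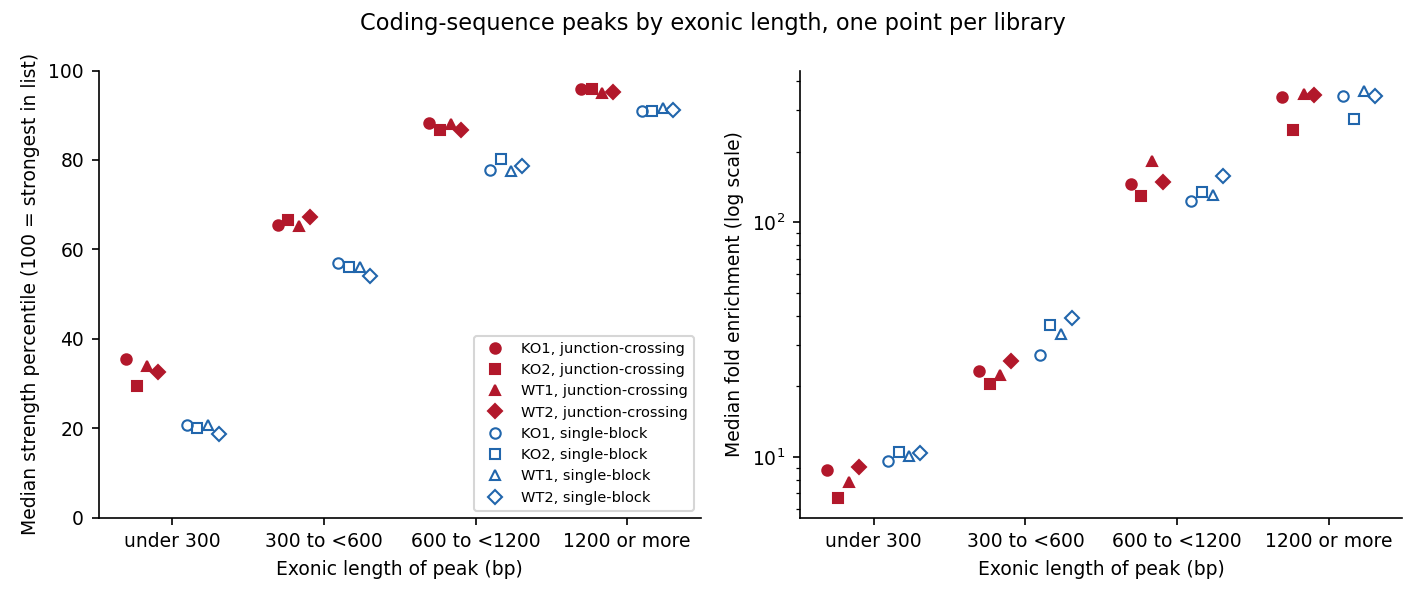
Median strength percentile (left axis, 100 being the strongest peak of a list) and median authors' fold enrichment (right, log scale) of coding-sequence peaks in 4 ranges of exonic length, with 1 point per library, filled for junction-crossing and open for single-block peaks. Junction-crossing peaks lie 3.41 to 14.7 percentile points higher in every range, while their folds lie at 0.561 to 1.39 times those of single-block peaks.

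More blocks went with a higher strength percentile but not with a steady rise in fold. Peaks of 2 blocks had median percentiles of 83.0 and 82.1 in KO1 and KO2, and 83.0 and 82.4 in WT1 and WT2. Peaks of 5 or more blocks had 95.3 and 96.1 in KO1 and KO2, and 95.1 and 95.5 in WT1 and WT2. Their median folds were 92.5 and 109 in KO1 and KO2, and 213 and 126.5 in WT1 and WT2, while peaks of 2 blocks had 106 and 105 in KO1 and KO2, and 135 and 136 in WT1 and WT2. Peaks of 5 or more blocks also had the longest exonic sequence, with medians of 1077 to 1261 bp.

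Although strong, junction-crossing peaks were listed less regularly than other peaks. Of the 1428 regions, 290 (20.3%, 95% Wilson interval 18.3 to 22.5%) had a junction-crossing peak in all 4 libraries and 566 (39.6%) in only 1. Of single-block coding-sequence regions 33.1% (31.8 to 34.4%) had a single-block peak in all 4, and of all listed regions 42.5% had a peak in all 4. These intervals cover counting error only. The gap was present among the strongest: where the best peak of a region was in the strongest 10% of its list, 35.0% of 515 junction-crossing regions were in all 4 libraries, against 56.0% of 457 single-block regions. With any listed peak counted, the shares of these regions were 55.7% and 70.2%.

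Some of the missing peaks were listed in another form. Listed peaks of any form or class were then counted where overlap joined them to the region, directly or through other listed peaks. In this way 645 of the 1428 regions (45.2%, 42.6 to 47.8%) were covered in all 4 libraries. Of single-block regions counted the same way, 42.8% were covered. The shares differed more by strength of the best peak. Up to percentile 50 they were 18.7% of junction-crossing and 18.6% of single-block regions. Over 50 to 75 they were 41.1% and 68.9%, and over 75 to 90 they were 51.1% and 77.4%. There were 2590 cases in which a region lacked a junction-crossing peak in a library. In 909 of them (35.1%) the library listed a peak of another form there, most often a single-block coding-sequence peak (439 cases) or a single-block peak of the 3' untranslated region (274 cases). In the other 1681 cases (64.9%) it listed no peak.

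**Figure D2:**
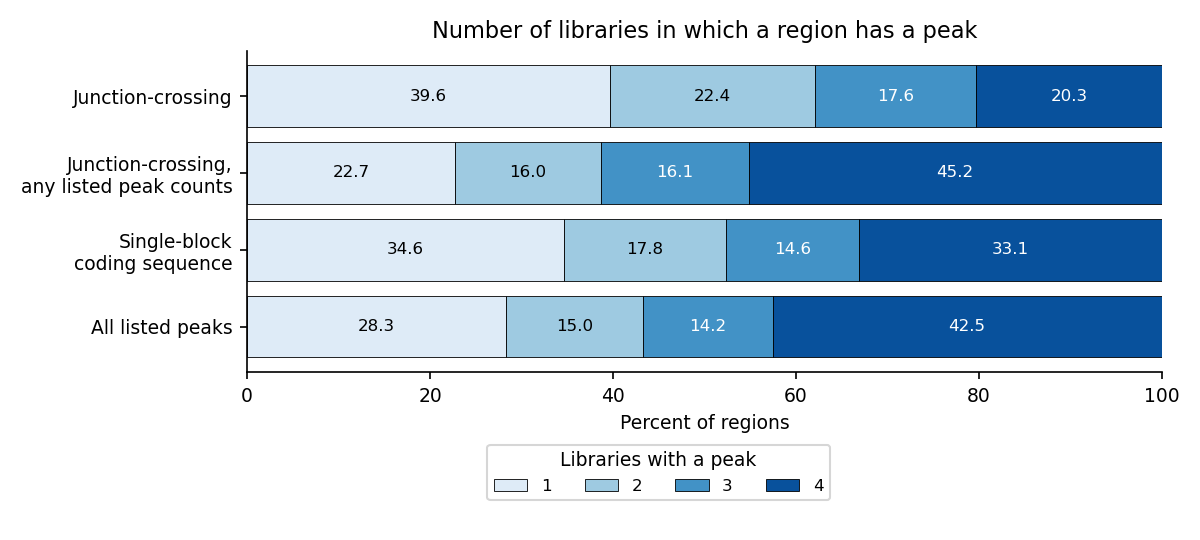
Percent of regions with a peak in 1, 2, 3 or 4 libraries, for junction-crossing regions, the same regions with any listed peak counted, single-block coding-sequence regions and all listed peaks. Junction-crossing peaks recur in all 4 libraries in 20.3% of regions, which becomes 45.2% when any form counts.

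The share of gaps in the span moved with recurrence. Regions whose gaps made up less than 20% of the span were listed as junction-crossing in all 4 libraries in 36.4% of 220 cases (30.3 to 42.9%). The share was 23.1% of 533 regions from 20 to under 40%, 12.7% of 291 from 40 to under 60%, and 13.02% of 384 (10.02 to 16.8%) at 60% or more. With any listed peak counted the steps were 75.9%, 55.3%, 35.4% and 20.8%. Strength did not follow the same order, since the median percentile of these 4 groups was 84.0, 77.5, 78.2 and 83.6. Among regions whose best peak was in the strongest 10% of its list, any listed peak in all 4 libraries was found for 83.5%, 68.9%, 44.2% and 31.7%. In regions with a large gap share a peak was thus more often absent altogether from some of the lists. This was so also where another list gave it one of its smallest p-values. The part of the peak calling in this was not tested.

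**Figure D3:**
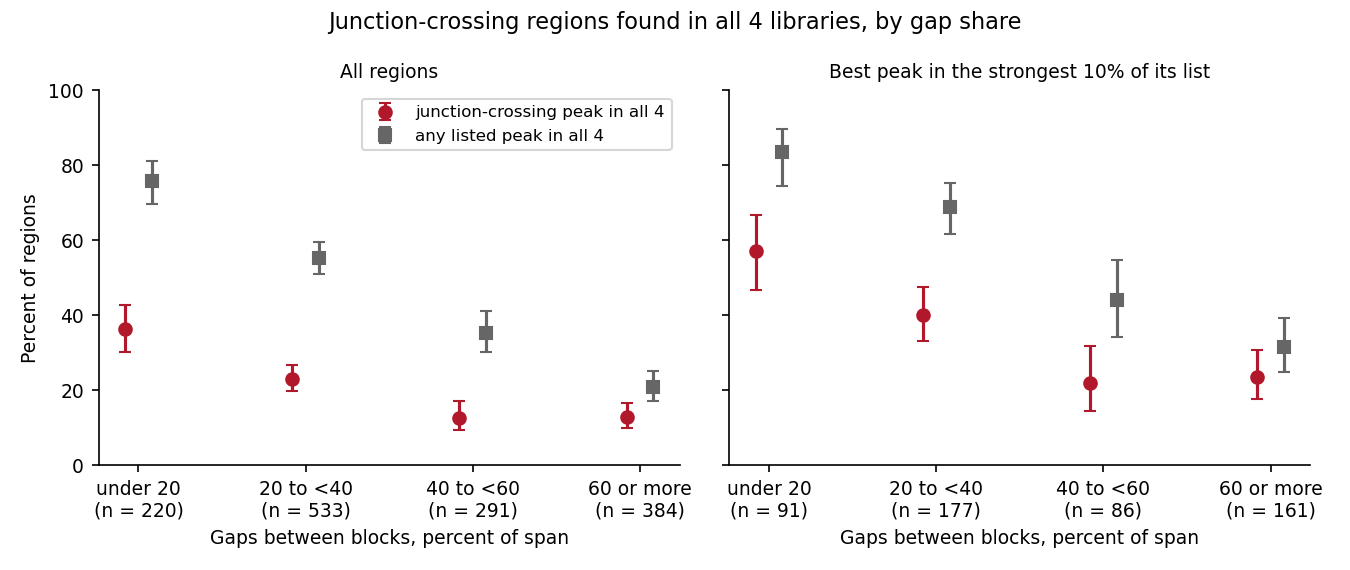
Percent of junction-crossing regions found in all 4 libraries against the percent of the span taken by gaps between blocks, for all regions (left) and for those with a best peak in the strongest 10% of its list (right); circles count junction-crossing peaks, squares any listed peak, and bars are 95% Wilson intervals. With any listed peak counted, the share is 75.9% below a gap share of 20% and 20.8% at 60% or more.

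Single genes show this. Golga4, for example, was listed in KO1 with 7 blocks and a fold of 383, and its region had no peak in the other lists. Setd2, a histone methyltransferase, had a second region of 4 blocks listed in KO2 with a fold of 323 and in WT1 with a fold of 307, and absent from KO1 and WT2.

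Where a region was listed in all 4 libraries its structure was stable. The set of junctions was the same in all 4 lists for 239 of the 290 regions (82.4%), and at least 1 junction was shared by all in 276 (95.2%). The outer ends were identical in all 4 in only 14 regions (4.83%). Of the 2695 junctions, 440 (16.3%) were crossed in all 4 libraries and 1190 (44.2%) in 1.

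The strongest regions found in all 4 libraries belonged to genes of varied function, and the values that ranked them are given as a description. They were Ppp4r2, Klf4, Spen, Utp14b, Mdc1, Cebpz, Phf3, Plec, Rif1 and Nfe2l1. Klf4, a pluripotency transcription factor, had 1 peak across 5 blocks (chr4:55527352-55532346) with folds of 741 and 204 in KO1 and KO2, and 775 and 423 in WT1 and WT2. Its exonic length was 2661 and 2601 bp in KO1 and KO2, and 2720 and 2691 bp in WT1 and WT2, and no other Klf4 peak was listed. The peak of Ppp4r2, a regulatory subunit of protein phosphatase 4, crossed 3 blocks (chr6:100865109-100866857), with folds of 950 and 540 in KO1 and KO2, and 754 and 289 in WT1 and WT2. The number of blocks was the same in all 4 libraries for both genes.

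Some of these regions were very long. In Plec, which encodes the cytoskeletal linker plectin, the peaks reached 10586 and 9267 bp of exon in KO1 and KO2, and 10346 and 9687 bp in WT1 and WT2 (chr15:76171904-76184044). In Spen the main region (chr4:141471405-141484741) spread over 8304 and 8124 bp in KO1 and KO2, and 8214 and 8094 bp in WT1 and WT2. In Phf3, a PHD finger protein that binds RNA polymerase II, gaps took 81.1% of the span, and it was still listed in all 4, with folds of 244 and 155 in KO1 and KO2, and 210 and 348 in WT1 and WT2. Mdc1, a mediator of the DNA damage response, had folds of 445 and 330 in KO1 and KO2, and 583 and 272 in WT1 and WT2. Rif1, a regulator of replication timing, had 5, 5, 5 and 4 blocks in KO1, KO2, WT1 and WT2. Nfe2l1, a transcription factor for proteasome genes, had 4 blocks in every list. Utp14b, a factor of ribosomal RNA processing, had folds of 968 and 280 in KO1 and KO2, and 330 and 210 in WT1 and WT2, and Cebpz, a CCAAT-binding protein, had 299 and 114 in KO1 and KO2, and 256 and 296 in WT1 and WT2.

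Genotype was examined by presence. Regions with a junction-crossing peak in both KO and neither WT library numbered 61 (4.27%, Wilson interval 3.34 to 5.45%). Of all listed regions, 2.51% had a peak of any form in both KO and neither WT library. Of single-block regions, 2.36% had a single-block peak in both KO and neither WT library. Regions found in both WT and neither KO library numbered 46 (3.22%, 2.42 to 4.27%), against 2.02% of all listed regions by any form and 3.08% of single-block regions by single-block peaks. With any listed peak counted, 47 of the regions were KO-only (3.29%, 2.48 to 4.35%) and 33 were WT-only (2.31%, 1.65 to 3.23%). Both intervals take in the share of all listed regions. With presence asked of 1 library in place of 2 in a genotype, KO-only regions numbered 164 without KO1, 275 without KO2, 127 without WT1 and 109 without WT2, and WT-only regions 121, 110, 155 and 186 without KO1, KO2, WT1 and WT2.

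These counts did not stand apart from pairings that mix the genotypes. Of the 320 regions listed in exactly 2 libraries, 107 followed genotype (33.4%, 28.5 to 38.8%), while 109 and 104 followed the crossed pairings. The Jaccard index (regions shared by 2 libraries over regions in either) was 0.41 between KO1 and KO2 and 0.451 between WT1 and WT2, and between 0.412 and 0.446 across genotypes. The mean within genotypes exceeded the mean across them by 0.00044, against an SD of 0.0176 over the 6 pairs. KO-only regions had a median gap share of 45.9% and WT-only regions of 39.2%, beside 38.6% over all junction-crossing regions and 28.7% in regions of all 4 libraries.

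**Figure D4:**
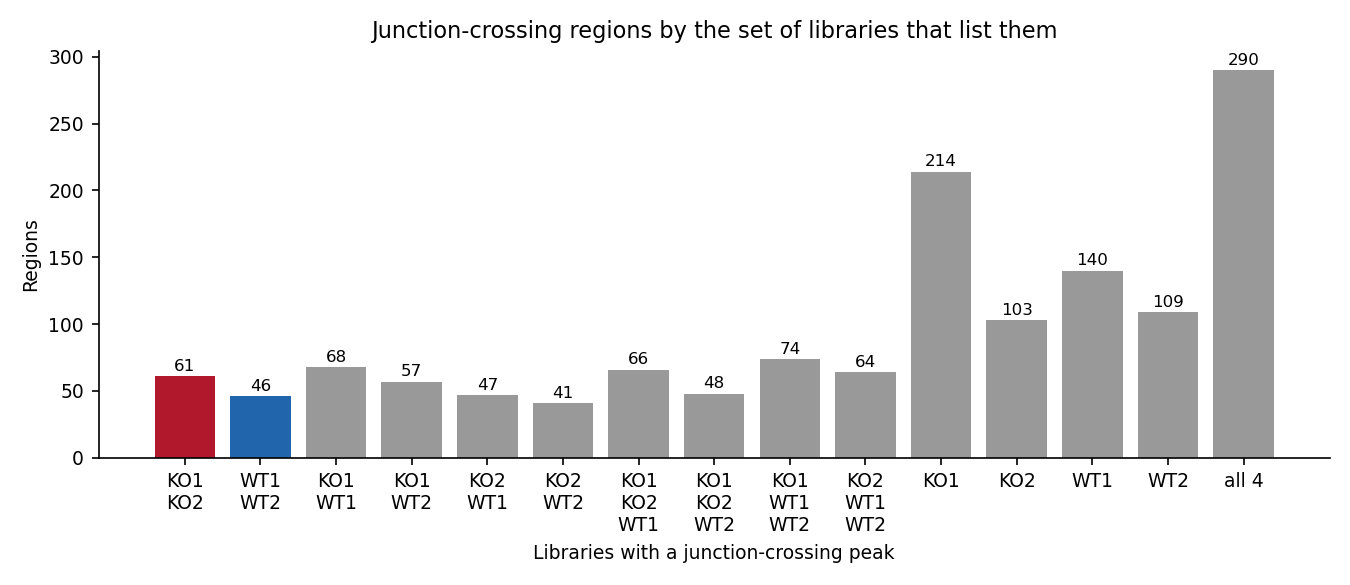
Number of junction-crossing regions for each set of libraries that lists them, with the KO-only set in red and the WT-only set in blue. KO-only (61) and WT-only (46) regions are about as many as those of the 4 pairs that mix genotypes (41 to 68).

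The 10 strongest KO-only regions lay in Brwd1, Mga, Kif14, Setd2, Psma4, Rexo1, Akap9, Tnrc6b, Prelid3b and Eml4. In 5 of them no WT list held a peak of any form. Kif14, a mitotic kinesin, had folds of 528 and 530 in KO1 and KO2 (chr1:136466343-136471344, 3 blocks, gap share 72.1%). Psma4, an alpha subunit of the proteasome core, had folds of 55.9 and 32.7 in KO1 and KO2 (chr9:54954703-54958030, 5 blocks, gap share 75.1%). Rexo1, an RNA exonuclease homologue, had 1430 and 775 in KO1 and KO2. Akap9, an anchoring protein of the centrosome and Golgi, had 294 and 415 in KO1 and KO2, with gaps taking 83.8% of its span. Prelid3b, a mitochondrial lipid transfer protein, had 84 and 37.1 in KO1 and KO2.

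The other 5 overlapped a peak of another form in at least 1 WT list. Brwd1, a bromodomain protein, had a peak of 2 blocks with folds of 1020 and 532 in KO1 and KO2, and a single-block coding-sequence peak with folds of 1640 and 609 in WT1 and WT2. The Setd2 region had folds of 469 and 115 in KO1 and KO2 as a 2-block peak, and 809 and 630 in WT1 and WT2 as a single-block coding-sequence peak. Eml4, a microtubule-binding protein, was a coding-sequence peak in KO1 and KO2 (295 and 361) and a multi-block peak of the 3' untranslated region in WT1 and WT2 (342 and 269). Tnrc6b, a silencing factor of the microRNA pathway, had 720 and 859 in KO1 and KO2, and a single-block peak of 1530 in WT1 with none in WT2. Mga, a partner of Max, had 610 and 224 in KO1 and KO2, and weak single-block peaks of the 3' untranslated region in WT1 and WT2 (5.49 and 1.93).

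The 10 strongest WT-only regions lay in Sh2b1, Usf1, Zfp534, Zfp229, Zfp84, Dnajb1, Pask, Sf1, Fzr1 and Zfp985. In 6 of them no KO list held a peak of any form. Usf1, a helix-loop-helix transcription factor, had folds of 525 and 501 in WT1 and WT2 across 5 blocks (chr1:171415771-171418724). Fzr1, which activates the anaphase-promoting ubiquitin ligase, had 1360 and 329 in WT1 and WT2, and the PAS domain kinase Pask had 312 and 176. Of the 4 zinc finger genes, Zfp534, Zfp229 and Zfp84 had no listed KO peak there. They had folds of 243 and 765, 719 and 313, and 594 and 1350 in WT1 and WT2. Reads from near-identical members of this family can be shared, and how they were assigned is not given in the sources used here.

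The remaining 4 WT-only regions overlapped a peak of another form in at least 1 KO list. Sh2b1, a signalling adaptor, had single-block coding-sequence peaks of 202 and 557 in KO1 and KO2, and 2-block peaks of 137 and 136 in WT1 and WT2. Dnajb1, a J-domain co-chaperone, had single-block peaks of the 3' untranslated region with folds of 44.1 and 6.72 in KO1 and KO2, and 4-block peaks of 324 and 294 in WT1 and WT2, one gap of which is the 10 bp gap shown above. Sf1, the branch-point binding splicing factor, had a single-block peak of 355 in KO1 and none in KO2, and 2-block peaks of 285 and 226 in WT1 and WT2. Zfp985 had single-block peaks of 430 and 14.9 in KO1 and KO2, and 2-block peaks of 201 and 263 in WT1 and WT2.

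**Figure D5:**
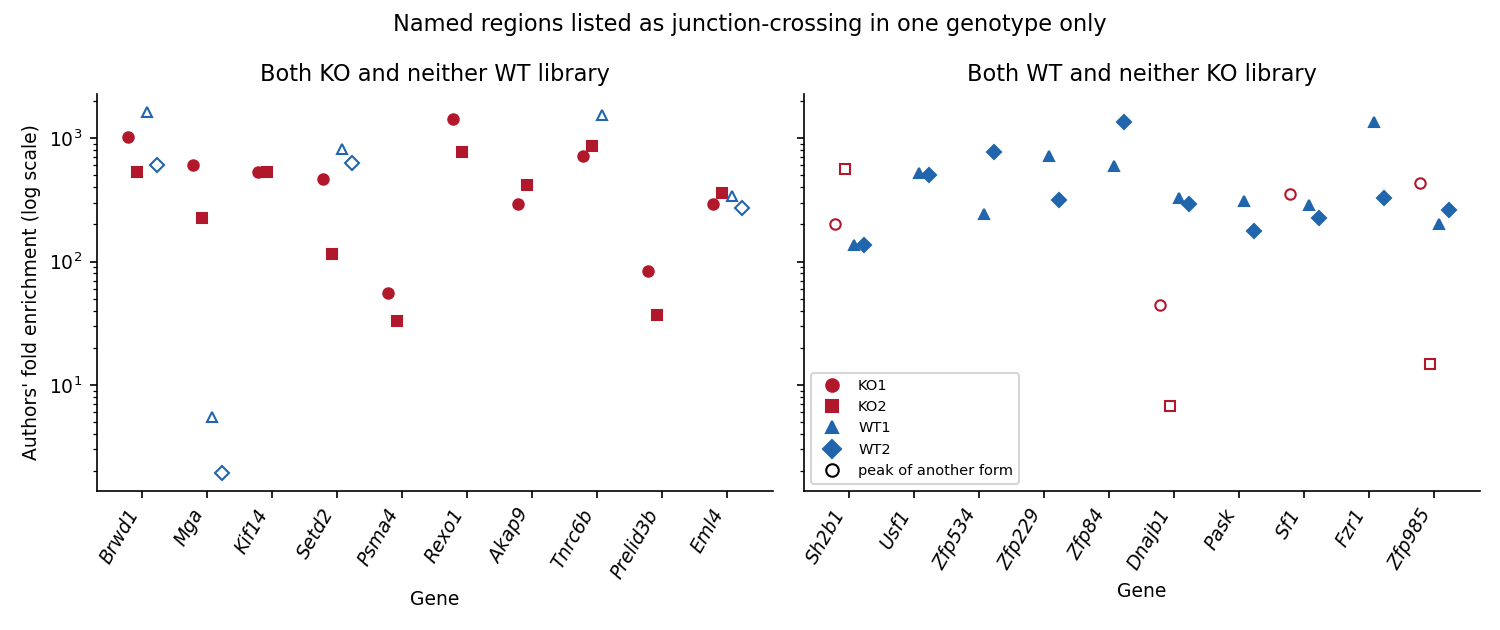
Authors' fold enrichment (log scale) in each library for the 10 strongest KO-only (left) and 10 strongest WT-only regions (right), with KO libraries in red and WT libraries in blue; filled symbols are junction-crossing peaks and open ones are listed peaks of another form in the same region. Open symbols stand in 5 of the 10 KO-only and 4 of the 10 WT-only regions.

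A set of genes was followed whatever their values. Fbxw7, the substrate receptor of a ubiquitin ligase that targets Myc, had a 3-block peak in every list (chr3:84974547-84978119), with folds of 1100 and 1100 in KO1 and KO2, and 1090 and 830 in WT1 and WT2. Myc was listed in KO1 alone, as 1 peak of 4 blocks and 2478 bp of exon with a fold of 1020. KO2, WT1 and WT2 listed no Myc peak. Chd7, a chromatin remodeller, had a 4-block peak with a fold of 936 in KO1, single-block coding-sequence peaks elsewhere in the gene in KO2, and none in WT1 or WT2. Eef2, the translocation factor of translation, had a KO-only region with folds of 38.8 and 24.9 in KO1 and KO2, and 2 further regions in KO1 with folds of 1.55 and 1.65. Scaf4, Pou5f1, Sox2, Esrrb, Nanog, Mettl3, Mettl14 and Ythdc1 had no junction-crossing region. Of these, Pou5f1 and Esrrb had single-block coding-sequence peaks in all 4 lists, and Scaf4 had one in each WT list (folds of 355 in WT1 and 475 in WT2) and no peak in KO1 or KO2. Nanog and Mettl3 had no listed peak.

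Lists of related genes were then read by count. Over all genes with a listed peak of any form, 1289 of 9949 (12.96%) had a junction-crossing region, and the median strength of all 1428 regions was 80.6. Of these regions, 20.3% were in all 4 libraries, 39.6% in 1, 4.27% KO-only and 3.22% WT-only. The counts of every list below are to be read beside these shares, and most lists hold few regions. The lists hold many long genes of many exons, and the part of gene length in their shares was not tested. Of chromatin regulators, 19 of the 30 genes with a listed peak (63.3%; 38 in the list) had 34 regions, with a median strength of 83.1. Their recurrence, with 6 regions in all 4 libraries and 13 in 1, was near that of all junction-crossing regions. Kmt2d and Kmt2b, histone methyltransferases of the trithorax family, had 4 regions each, the most of any gene. Another 20 genes had 3, among them Spen, Fat1 (a giant protocadherin) and Setd2. The 4 Kmt2d regions ranged widely, from folds of 1570 and 194 in KO1 and KO2, and 929 and 912 in WT1 and WT2, to a weak region with 5.37 in KO1 and 2.96 in WT2. Chd8 and Setd2 were KO-only in 1 region each. Crebbp, an acetyltransferase, was junction-crossing in KO1 (2030) and WT1 (1110), and had another form in KO2 and WT2. Suz12, a core subunit of Polycomb complex 2, was listed in KO1 alone with a fold of 221.

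In the list of the exon junction complex and nonsense-mediated decay, 6 of the 17 genes with a listed peak (35.3%, with 24 in the list) had 9 regions. Their median strength was 91.6. Of the 9 regions 5 were in all 4 libraries, against 20.3% of all junction-crossing regions. Smg1, the kinase of nonsense-mediated decay, had 1 region with folds of 813 and 476 in KO1 and KO2 and 979 and 858 in WT1 and WT2, and another with 384 and 120 in KO1 and KO2 and 146 and 169 in WT1 and WT2. Smg5, a decay factor, had 155 and 94.3 in KO1 and KO2, and 141 and 141 in WT1 and WT2. Acin1, which joins the junction complex, had 3 regions, 2 in all 4 libraries and 1 KO-only with folds of 6.2 and 5.21. The other members were Pnn (junction-crossing in KO1 only, 11.2), Smg8 (334 in KO1 and 393 in WT2) and Casc3, a core subunit (junction-crossing in WT1 only, 4.21). Eif4a3, Magoh, Magohb and Rbm8a, the remaining core of the complex, had none.

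Among m6A writers, erasers and readers 5 of the 17 genes with a listed peak (29.4%; 29 in the list) had 5 regions, 2 in all 4 libraries, with a median strength of 80.5. Rbm15b, an adaptor of the writer complex, had folds of 529 and 356 in KO1 and KO2, and 530 and 402 in WT1 and WT2. Virma, its scaffold, had 186 and 105 in KO1 and KO2, and 315 and 315 in WT1 and WT2. Hnrnpc was weak, with 1.98 and 1.75 in KO1 and KO2 and 1.39 in WT1. Pcif1, which methylates the first adenosine after the cap, was WT-only as a junction-crossing region: KO1 listed a single-block peak of the 3' untranslated region (37) and KO2 a single-block coding-sequence peak (67.5), and WT1 and WT2 a 2-block peak (154 and 307).

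Of pluripotency genes, 6 of the 21 with a listed peak (28.6%; 31 in the list) had 6 regions, with a median strength of 98.5. Besides Klf4, Zfp281 was listed in all 4, with folds of 495 and 339 in KO1 and KO2, and 561 and 647 in WT1 and WT2. Klf2 was listed as junction-crossing in KO1 (343), WT1 (434) and WT2 (25.2), Klf5 in KO2 (71.6) and WT2 (129), Tbx3 in KO1 (1340) and Utf1 in WT2 (9.69). None of the 6 regions was KO-only or WT-only, where the shares over all junction-crossing regions were 4.27% and 3.22%.

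Of splicing factors, 8 of the 24 with a listed peak (33.3%, with 40 in the list) had 8 regions, with a median strength of 63.3. Of the 8 regions 5 were in 1 library, against 39.6% of all junction-crossing regions. Srsf11 had folds of 40.6 and 23.8 in KO1 and KO2, and 22.8 and 49.7 in WT1 and WT2, and Sf3b1, the branch-point binding core factor, had 13.1 and 5.91 in KO1 and KO2, and 16.4 and 7.96 in WT1 and WT2. Cytoskeletal motors and giant linkers had 27 regions in 14 of the 33 genes with a listed peak (42.4%; 41 in the list), 7 in all 4 libraries, with a median strength of 76.1. Dync1h1, the dynein heavy chain, had 136 and 57.2 in KO1 and KO2, and 52.8 and 33.3 in WT1 and WT2. Sptbn1, a spectrin, had 2 regions in all 4 libraries, the first with 220 and 162 in KO1 and KO2, and 177 and 181 in WT1 and WT2. Translation elongation, proteasome and chaperonin genes had 4 regions in 2 of the 14 genes with a listed peak (14.3%, with 40 in the list). These were Eef2 and Psma4, with 1 KO-only region each, where 4.27% of all junction-crossing regions were KO-only.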

How the data were processed

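Per the labels' protocols, total RNA in fragments of about 200 nucleotides was precipitated with an anti-m6A antibody. HISAT2, HOMER and the build mm10 appear in the submitters' processing notes without roles. The peak caller, its settings and its background were not given in the sources used here. The authors deposited a separate peak list for each library, not one for pooled samples. Per the file headers, each peak has a p-value, its log10 and that of an adjusted p-value (kept as scores, since some have no finite log10), a fold enrichment ratio, exon blocks, a gene and a class. These values were used to describe and rank peaks within a list.

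Block positions were computed from the deposited block starts and sizes, which count from 0, and are printed from 1. Peaks were joined into regions where blocks overlapped by 1 bp, on either strand. Between 3.92% and 4.72% of junction-crossing peaks overlapped a listed peak of the other strand, which leaves their gene uncertain. Strength was the percentile of the log10 p-value within a list. Between 61 and 76 junction-crossing peaks per list had no finite log10 and were tied at the top. Genotypes were compared by two-sided exact permutation over libraries, peak classes by exact sign-flip permutation over the 4 libraries, and shares by 95% Wilson intervals. Depth is unknown, so no interval accounts for it. Presence in a list was treated as deposited, with no limit on the adjusted p-value, which reached 0.05 in 1 junction-crossing peak of KO1 and 1 of KO2.

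The members, gene lists and tests were chosen with earlier results of these data known. Named regions were the 10 strongest in all 4 libraries, KO-only and WT-only (ties by mean fold, predicted genes left out), the 5 with most blocks, largest span or longest enclosed exon, the 5 genes with most regions, 15 genes in every case and up to 4 members of each list per direction. Examples outside these rules were chosen after seeing their values. Sequences are from RefSeq, assembly GRCm38.p6. Region joining was tested on simulated lists. Alternatives were other joining rules, thresholds, equal list lengths and leaving out each library. Python 3.11.15, numpy 2.4.6, pandas 2.3.3, scipy 1.17.1 and matplotlib 3.10.9 were used.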

Additional observations from a re-analysis of the deposited data

How the results depend on the processing

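Besides leaving out libraries, 65 values were computed under other settings, of which 59 kept the direction of a tested value, stayed within the spread of an untested one or stayed within 1.5 times of a count, 5 moved and 1 reversed. The log2 ratio of median folds, junction-crossing over single-block, was 2.35 and reversed to -0.1997 when averaged within ranges of exonic length. The share of regions in all 4 libraries, junction-crossing minus single-block, was -12.7 percentage points, and became -7.24 with a reciprocal overlap of 50%, 2.35 with any listed peak counted and -17.3 in the stronger 50% of each list. The junction-crossing share in all 4 became 45.2% with any listed peak counted and 23.0% in the stronger 50%. Requiring at least 1 gap of 50 bp or more, a choice added after seeing the data, left 59 KO-only and 46 WT-only regions.

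Leaving out 1 library in turn gave 109 to 275 KO-only and 110 to 186 WT-only regions, since presence then rests on 1 library of a genotype. The share found in all remaining libraries was 26.2% to 29.0%, and its difference from single-block regions was -13.6 to -11.2 percentage points. The Jaccard difference was 0.0332 without KO2 and -0.0243 without WT2. The genotype difference in the share of coding-sequence peaks was -0.445 without KO1 and 1.69 without KO2, and that in the share of 2-block peaks was -1.12 to 0.637. The strength difference stayed at 35.9 to 36.3 percentile points, the length difference at 445 to 454 bp and the log2 fold ratio at 2.24 to 2.48. No paired analysis was possible because the wild-type titles carry no replicate numbers and no result came from a fitted model.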
